A study of Rattus norvegicus with 18 samples.

Results

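The genes described here encode the chains of collagen, the enzymes and chaperone that shape and cross-link them, and 6 small leucine-rich proteoglycans that coat collagen fibrils. They were chosen by symbol: collagen chains, the prolyl 4-hydroxylase alpha subunits (P4ha), the lysyl hydroxylases (Plod), every symbol beginning with Lox, and Serpinh1, Pcolce, Pcolce2, Dcn, Lum, Bgn, Fmod, Ogn and Aspn. The rat reference held 64 protein-coding genes that match, and 35 of them stood in at least 1 of the authors' 3 lists of changed genes, out of 6588 genes listed in all. Col21a1 and Pcolce2 are not among the 64, and neither symbol stood in any of the 3 lists. Loxhd1, which matched by its first letters and is not a lysyl oxidase, was listed in none.

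The data are polyadenylated RNA of the left ventricle from 18 male rats. ZSF1 obese rats (6), which are hypertensive and have metabolic syndrome, stood for heart failure in which the ejection fraction is preserved. ZSF1 lean rats (6) are hypertensive without it, and WKY rats (6) were the control strain. ZSF1 animals are a hybrid of a diabetic fatty line and a hypertensive heart failure line, and by background knowledge obese animals carry a defective leptin receptor gene from each parental line. WKY is another strain, so strain and disease differ together in any comparison with it. The rats' ages are not given in the labels. The lists give 1 linear fold and 1 adjusted p-value (false discovery rate, FDR) per gene, each from 6 rats against 6, and hold only genes that at least doubled or halved (fold from 2 up, or from 0.5 down). Values per rat, levels and depth are not part of these lists, so a gene that is not listed may have changed less, varied more or not been detected.

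Collagen chains are made as procollagens in the endoplasmic reticulum. Prolyl and lysyl hydroxylases modify them, the chaperone HSP47 (Serpinh1) holds the triple helix together, proteinases cut off the ends outside the cell, and lysyl oxidases start the cross-links that make fibrils stiff and insoluble. Fibroblasts make most of the fibrillar collagen of the heart, chiefly types I and III, while type IV collagen forms the sheet-like network of the basement membranes around myocytes and vessels. Proteoglycans such as decorin and biglycan bind fibrils and regulate their growth.

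Obese hearts had higher RNA of many of these genes than lean hearts. In the authors' deposited table of ZSF1 obese against ZSF1 lean, 26 of the 64 genes were higher (40.6%), 1 was lower and 37 were not listed. Of all 23148 protein-coding reference genes 12.2% were listed as higher and 10.9% as lower, and among the listed genes 53.4% were higher and 46.6% lower. Against WKY hearts the authors' deposited table had 32 of the 64 higher, 0 lower and 32 not listed, beside 12.4% of the reference genes listed as higher, 10.8% listed as lower, and 54.0% higher and 46.0% lower among listed genes. These percentages of the reference include genes that the heart may not express. The median fold of the members that rose was 3.25 against lean and 3.71 against WKY hearts, near those of all listed genes that rose, 3.01 and 3.05. In lean against WKY hearts 1 member was listed, as lower, and 0 as higher, where 0.596% of the reference genes were listed as higher and 0.302% as lower, 63.9% of the 233 listed genes were higher, and 36.1% were lower. That list holds no FDR above 0.000347, while the obese lists reach 0.0498 and 0.0499. Whether its threshold or its way of estimating folds differed is not given in the labels. Both obese comparisons use the same obese rats, so the 24 members found in both are not 2 independent results. The obese lists hold 5700 and 5709 genes, out of 6588 in the 3 lists together, so most of all listed genes also stand in both.

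**Figure D1:**
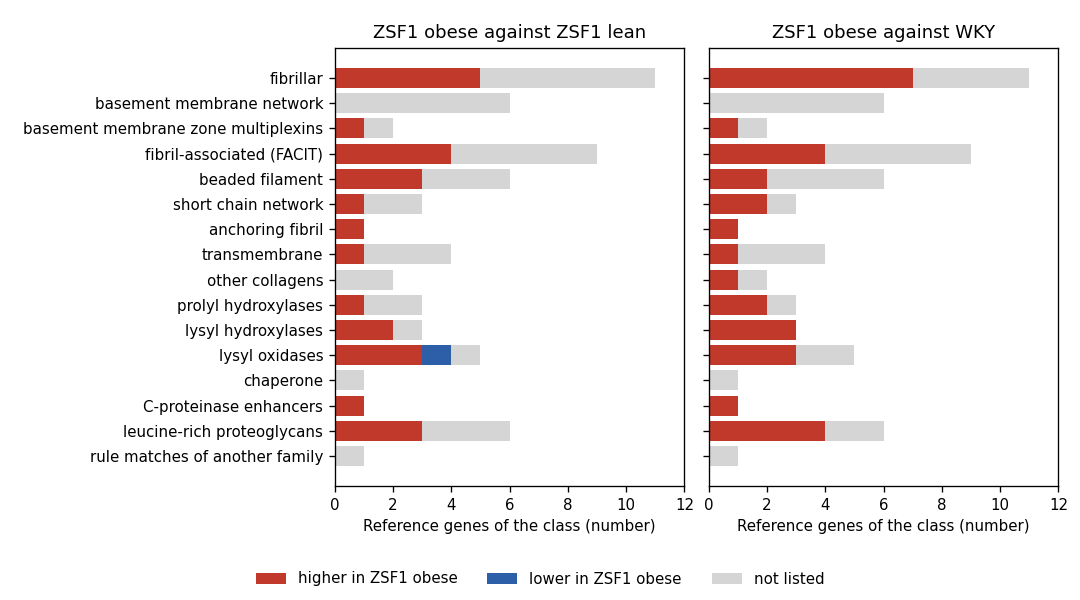
Number of reference genes of each class (horizontal axis) that the authors listed as higher in ZSF1 obese hearts (red), lower (blue) or did not list (grey), against ZSF1 lean (left) and WKY hearts (right). The 6 type IV chains are all grey, and Loxl4, a lysyl oxidase, is the 1 blue gene.

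Among the fibrillar collagens, 5 of 11 rose against lean hearts and 7 of 11 against WKY hearts, with 0 lower in either. Over all reference genes, 12.2% and 12.4% were listed as higher over lean and WKY hearts, and 10.9% and 10.8% as lower. These shares also stand beside the class counts below. Col1a1 (ENSRNOG00000003897), the major chain of type I collagen, had a fold of 5.10 in obese over lean (adjusted p = 7.52e-08) and of 4.08 in obese over WKY hearts (adjusted p = 2.22e-05) according to the authors' deposited table. Col3a1 (ENSRNOG00000003357), the chain of type III collagen, stood at 4.20 over lean (adjusted p = 1.36e-07) and 3.23 over WKY hearts (adjusted p = 0.000129) according to the authors' deposited table. Col5a2, a chain of the type V collagen that starts type I fibrils, rose less, with folds of 2.46 over lean and 2.35 over WKY hearts according to the authors' deposited table. Col3a1 and Col5a2 are direct neighbours in the reference. The other chains of type V, Col5a1 and Col5a3, were not listed.

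Type I collagen is built from chains of 2 genes, and the second, Col1a2 (ENSRNOG00000011292), did not follow Col1a1 through the lists. The authors' deposited table gave it a fold of 4.44 in obese over WKY hearts, close to that of Col1a1, but with an adjusted p of 0.0291. It was not listed against lean hearts, and whether its change differs from that of Col1a1 was not tested. The largest fibrillar fold belonged to Col11a2 (ENSRNOG00000000463), a chain of the type XI collagen known from cartilage, at 8.94 over lean (adjusted p = 1.66e-28) and 8.06 over WKY hearts (adjusted p = 2.81e-11) according to the authors' deposited table. Its partner Col11a1 was listed against WKY hearts alone, with a fold of 2.83 (adjusted p = 0.0293) according to the authors' deposited table. Col27a1, a fibrillar collagen also known from cartilage, had folds of 3.12 over lean and 3.76 over WKY hearts according to the authors' deposited table. Col2a1 and Col24a1 were not listed.

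**Figure D2:**
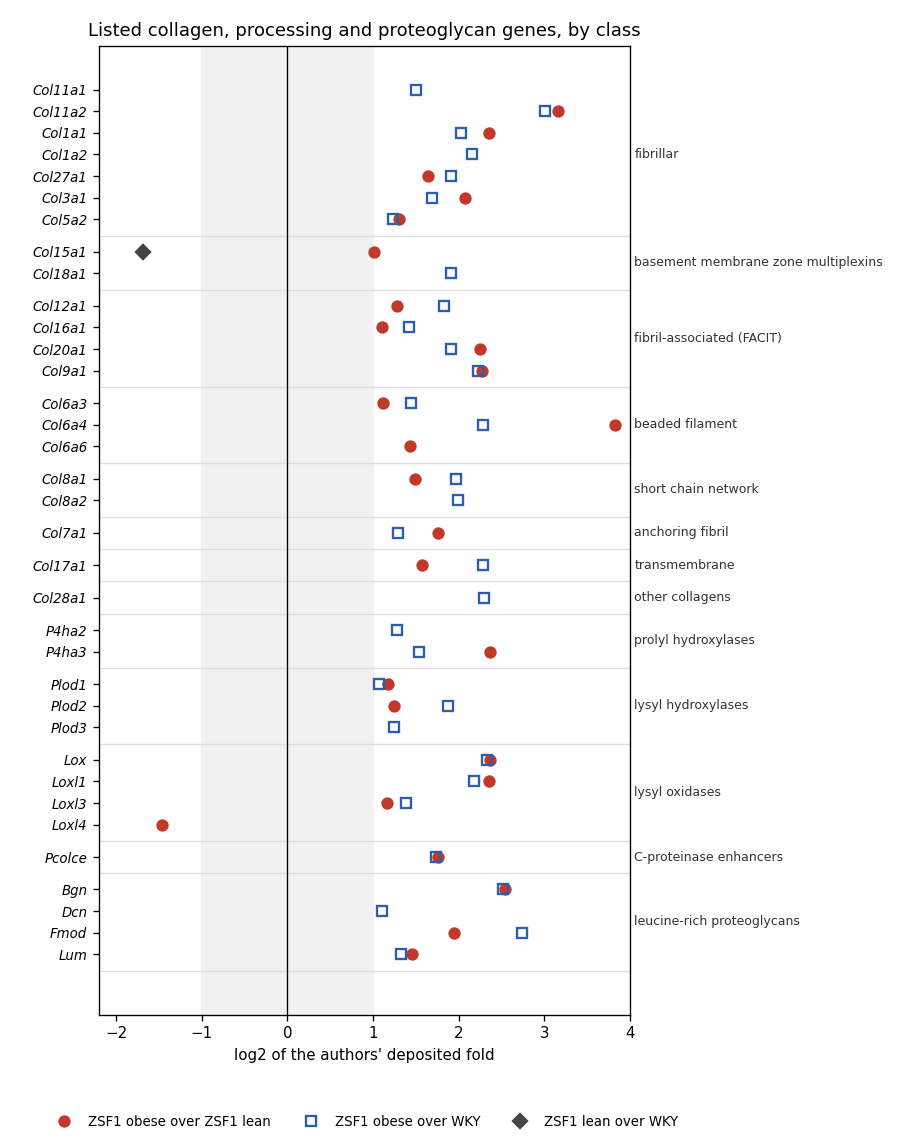
The log2 of the authors' deposited fold (horizontal axis) for each of the 35 listed genes, grouped by class, for ZSF1 obese over ZSF1 lean (filled circles), ZSF1 obese over WKY (open squares) and ZSF1 lean over WKY (diamond). The grey band marks folds between 0.5 and 2, which the lists leave out; all points lie to its right except Loxl4 in obese over lean and Col15a1 in lean over WKY.

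Of the basement membrane network, none of the 6 type IV chains, Col4a1 to Col4a6, was listed in any of the 3 tables. Of all reference genes 12.2% and 12.4% were listed as higher over lean and WKY hearts. Of all 44 collagen chains, these 6 included, 36.4% and 43.2% were. Whether a count of 0 among 6 differs from these shares was not tested, nor was any difference between classes. The pair of collagens that join basement membranes to the matrix beneath, Col15a1 and Col18a1, were listed in different comparisons. Col18a1 (ENSRNOG00000001229), whose product releases endostatin, had a fold of 3.76 over WKY hearts, with the smallest adjusted p of all members there (7.85e-36) according to the authors' deposited table, and was not listed against lean hearts. Col15a1 (ENSRNOG00000060381), found around muscle fibres and capillaries, was the 1 member listed in lean against WKY hearts. It stood at 0.31 of the WKY level in lean hearts (adjusted p = 1.58e-21) and had a fold of 2.01 in obese over lean hearts (adjusted p = 0.0124) according to the authors' deposited tables. Its fold over lean hearts is the member value closest to the limit of 2. The product of the authors' deposited folds of obese over lean and lean over WKY is 0.624, within the range of 0.5 to 2 that the list of obese against WKY leaves out, and Col15a1 is not in that list. Such arithmetic is approximate here: over the 79 genes in all 3 tables the deposited log2 folds of lean over WKY missed the difference of the obese log2 folds by a median of 0.34 and by up to 2.56.

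The remaining collagens, which decorate fibrils, form other networks or span membranes, rose in 10 of 25 cases against lean and in 11 of 25 against WKY hearts, with 0 lower. Col6a4 (ENSRNOG00000031782), a chain of the beaded filament family, had the largest fold of all members over lean hearts, 14.1 (adjusted p = 1.01e-06), the 30th highest of 3045 rises, and one of 4.86 over WKY hearts (adjusted p = 0.00424) according to the authors' deposited tables. Its neighbours in the reference were Col6a5, which was not listed, and then Col6a6, with a fold of 2.69 over lean hearts (adjusted p = 0.000967) according to the authors' deposited table. The widespread type VI chains Col6a1 and Col6a2 were not listed, while their partner Col6a3 had folds of 2.17 over lean and 2.71 over WKY hearts according to the authors' deposited table. Type VI collagen appeared with 1 of its 3 common chains.

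Of the 9 fibril-associated collagens in the reference, the same 4 were listed against lean and against WKY hearts. Col20a1 had folds of 4.76 and 3.76, Col9a1 of 4.82 and 4.66, Col12a1 of 2.43 and 3.56 and Col16a1 of 2.16 and 2.68 over lean and WKY hearts according to the authors' deposited tables. Col9a1 is another cartilage collagen, and its adjusted p was 0.0156 over lean and 0.0175 over WKY hearts according to the authors' deposited tables, the first of which was the highest of all members over lean hearts. Col14a1, Col19a1, Col22a1, Col9a2 and Col9a3 were not listed. In the short chain network of vessels, Col8a1 rose by folds of 2.81 over lean and 3.92 over WKY hearts, and Col8a2 was listed over WKY hearts alone, at 3.97 (adjusted p = 4.59e-13), according to the authors' deposited tables.

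Collagens known from skin were among the listed genes too. Col7a1, of the anchoring fibrils, had folds of 3.39 over lean and 2.45 over WKY hearts, and Col17a1, of the hemidesmosomes, 2.97 over lean and 4.86 over WKY hearts according to the authors' deposited tables. Col28a1, which is not counted among these skin collagens, stood at 4.89 over WKY hearts (adjusted p = 3.88e-05) according to the authors' deposited table. Col10a1, Col13a1, Col23a1, Col25a1 and Col26a1 were not listed.

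The enzymes that modify and cross-link collagen, with the chaperone and the C-proteinase enhancer, comprise 13 genes. Of these 7 rose and 1 fell against lean hearts, and 9 rose and 0 fell against WKY hearts. Lox (ENSRNOG00000014426), the founding lysyl oxidase, had a fold of 5.17 over lean (adjusted p = 2.07e-13) and 5.03 over WKY hearts (adjusted p = 2.87e-08) according to the authors' deposited tables. Loxl1, known for its part in elastic fibres, followed closely with 5.10 over lean and 4.53 over WKY hearts according to the authors' deposited tables. Loxl3 rose less, with folds of 2.24 over lean (adjusted p = 4.15e-14) and 2.60 over WKY hearts according to the authors' deposited tables. Loxl4 (ENSRNOG00000015727) went the other way: its fold over lean hearts was 0.363 (adjusted p = 1.97e-05) according to the authors' deposited table and was not listed against WKY hearts. Loxl2 was not listed.

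The lysyl hydroxylases make the residues from which mature cross-links grow. Plod1 (ENSRNOG00000007763), which acts on the triple helix, had folds of 2.27 over lean (adjusted p = 2.81e-26) and 2.1 over WKY hearts (adjusted p = 9.4e-13) according to the authors' deposited tables. Plod2, which acts on the chain ends, had folds of 2.36 over lean and 3.65 over WKY hearts according to the authors' deposited tables. Plod3, which also attaches sugars, was listed over WKY hearts alone, at 2.38 (adjusted p = 2.97e-17) according to the authors' deposited table. Of the prolyl 4-hydroxylase subunits, which stabilise the helix, P4ha3 had folds of 5.13 over lean (adjusted p = 0.00234) and 2.91 over WKY hearts (adjusted p = 0.0415) according to the authors' deposited tables. P4ha2 was listed over WKY hearts alone, at 2.43 (adjusted p = 7.74e-30) according to the authors' deposited table, and P4ha1 was not listed. Pcolce, which speeds the removal of the C-terminal end, had folds of 3.39 over lean (adjusted p = 4e-21) and 3.32 over WKY hearts (adjusted p = 2.04e-15) according to the authors' deposited tables. Serpinh1 was not listed.

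Leucine-rich proteoglycans rose in 3 of 6 cases against lean and in 4 of 6 against WKY hearts, with 0 lower. Bgn, the biglycan gene (ENSRNOG00000055962), had nearly equal folds of 5.82 over lean (adjusted p = 3.16e-22) and 5.74 over WKY hearts (adjusted p = 5.13e-20) according to the authors' deposited tables. Fmod, the fibromodulin gene (ENSRNOG00000003183), stood at 3.86 over lean (adjusted p = 2.19e-11) and 6.68 over WKY hearts (adjusted p = 1.1e-22) according to the authors' deposited tables. Lum, the lumican gene, rose by folds of 2.75 over lean and 2.51 over WKY hearts according to the authors' deposited tables. Its neighbour Dcn, the decorin gene and a common marker of fibroblasts, was listed over WKY hearts alone, at 2.14 (adjusted p = 4.82e-06) according to the authors' deposited table. The close neighbours Ogn and Aspn were not listed.

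Size of change and adjusted p did not rank the members alike. Fibrillar collagens had a median fold of 4.20 over lean hearts and lysyl hydroxylases one of 2.31, yet Plod1, at 2.27, had a far smaller adjusted p than Col1a1, at 5.10, according to the authors' deposited table. Over lean hearts the median adjusted p of the 26 members that rose was 8.3e-08, against 2.95e-12 for all 3045 genes that rose. Over WKY hearts it was 1.53e-06 for the 32 members, against 2.26e-10 for all 3084. An adjusted p depends on level, spread between rats and fold together, and the lists do not separate them.

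**Figure D3:**
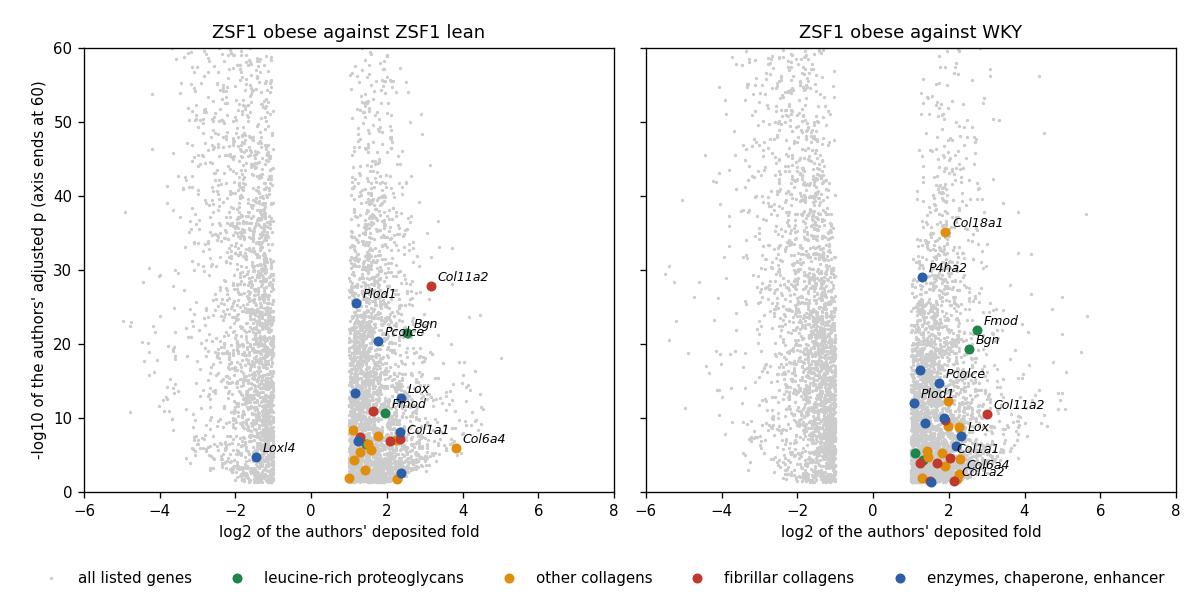
The log2 of the authors' deposited fold (horizontal axis) against -log10 of their adjusted p (vertical axis, ending at 60) for all listed genes (grey) and the members (coloured by class), in ZSF1 obese against ZSF1 lean (left) and against WKY hearts (right). All members lie below 60 on the vertical axis, while 640 and 418 listed genes lie above it and are not drawn; Plod1 stands above Col1a1 at a smaller fold.

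Further genes of collagen making and sensing, 40 in number and disjoint from the members, were listed in both directions. Of these 9 rose, 5 fell and 26 were not listed against lean hearts, 13 rose, 4 fell and 23 were not listed against WKY hearts, and 0 were listed in lean against WKY hearts. The falls, 12.5% of the list against lean hearts, are near the 10.9% of all reference genes listed as lower, and those against WKY hearts near 10.8%. The rises, 22.5% against lean and 32.5% against WKY hearts, stand beside 12.2% and 12.4%, with no test of the list. Sparc, a collagen-binding matricellular protein, had the smallest adjusted p of this list, with folds of 4.72 over lean and 4.08 over WKY hearts according to the authors' deposited tables. The helix-folding genes Fkbp10 and Ppib had folds of 3.36 and 2.69 over lean hearts, and Bmp1, the C-proteinase that Pcolce assists, one of 2.87 according to the authors' deposited table. The other rises over lean hearts were Epyc (5.13), Tsku (3.34), Itga10 (2.87), Prelp (2.58) and Ctsk (2.41) according to the authors' deposited table. P3h4 was listed over WKY hearts alone, at 3.2 (adjusted p = 5.26e-37) according to the authors' deposited table. Ddr2 was not listed. Among the falls, Ddr1, a collagen receptor, stood at 0.261 of the lean level (adjusted p = 8.18e-83) according to the authors' deposited table. Sec23a and Sec24d, coat proteins of the vesicles that carry procollagen out of the endoplasmic reticulum, stood at 0.395 and 0.42 of the lean level according to the authors' deposited table. Adamts3, which removes the N-terminal end of procollagens, stood at 0.384 and Fkbp14, a folding enzyme, at 0.49 of the lean level according to the authors' deposited table. Ddr1, Sec23a, Sec24d and Adamts3 were also lower than in WKY hearts, at 0.409, 0.387, 0.382 and 0.323 according to the authors' deposited table.

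Markers of several cell types moved along with the collagen genes. Fibroblast markers outside the member list rose in 7 of 12 cases in each obese comparison, with 0 lower, folds of 2.31 to 10.3 over lean hearts and a median of 5.46 according to the authors' deposited table. The fibroblast receptors Pdgfra and Pdgfrb, the factor Tcf21, and Ddr2 and Gsn were not listed, and S100a4, the highest, is also made by immune cells. Macrophage markers rose in 11 of 12 cases over lean and 12 of 12 over WKY hearts, and endothelial markers in 10 of 12 cases in each. Smooth muscle and pericyte markers had 6 rises and 2 falls over lean hearts and 5 rises and 2 falls over WKY hearts. The falls were Des and Rgs5 in both comparisons, while Acta2, Tagln, Myh11, Cnn1 and Lmod1 rose in both. Cardiomyocyte markers fell in 7 of 12 cases in each obese comparison, with 0 higher, and stood at 0.187 to 0.369 of the lean level according to the authors' deposited table. Beside these counts, 12.2% and 12.4% of all reference genes were listed as higher over lean and WKY hearts, and 10.9% and 10.8% as lower. The 2 smooth muscle and pericyte falls are 16.7% of their list, and no marker list was tested. No marker of the 5 lists was listed in lean against WKY hearts. In bulk tissue more cells of a type and more RNA per cell cannot be told apart, and the part of these shifts in the collagen values was not tested.

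**Figure D4:**
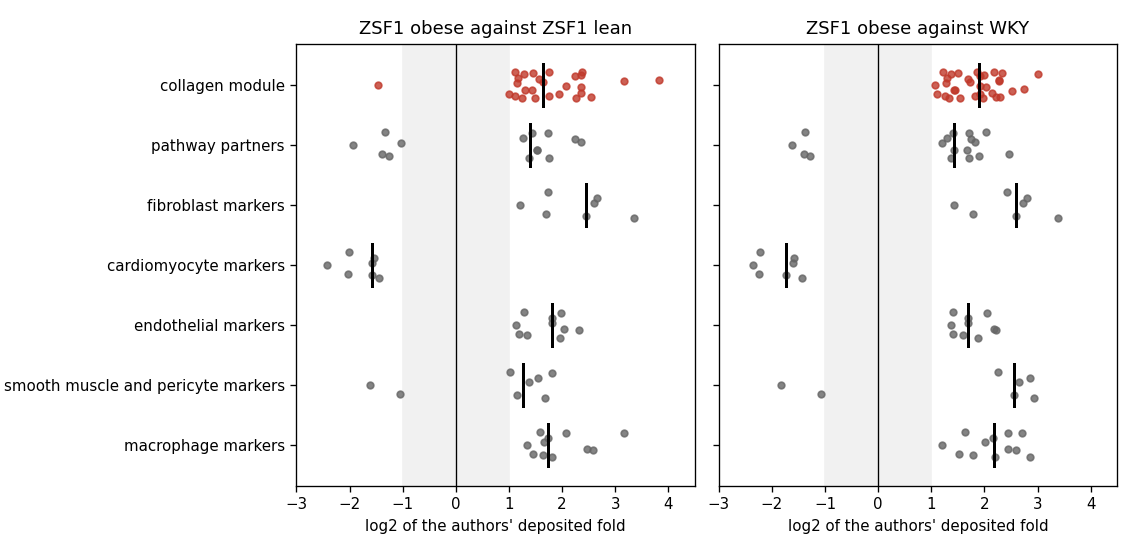
The log2 of the authors' deposited fold (horizontal axis) for listed genes of the collagen module (red) and of the pathway partner and cell type marker lists (grey), each point a gene and each black bar the median, for ZSF1 obese against ZSF1 lean (left) and against WKY hearts (right). Cardiomyocyte markers lie left of the grey band of folds between 0.5 and 2, and fibroblast, endothelial and macrophage markers right of it with the collagen genes.

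Promoter windows from RefSeq (build GRCr8, 250 bases before to 50 after the annotated start) were on hand for 29 of the 35 listed members, and 5 are given as examples of their roles and motifs. Lum and Plod2 were higher than in both lean and WKY hearts, Col1a2 and P4ha2 were listed over WKY hearts alone, and Loxl4 was listed as lower than in lean hearts alone. Capitals mark 5 motifs searched on both strands. They are TATAAA (the letters of a TATA box), CCAAT (bound by NF-Y), CAGAC (SMAD factors), TGANTCA (AP-1) and ACGTG (hypoxia-inducible factors). Only these letters were searched, and other forms of the same sites were not, so the counts can miss sites. In Col1a2 TATAAA begins 170 bases before the annotated start, and whether it acts as a TATA box was not tested. The 50 bases after that start begin with the letters atg and read on as an open frame. The annotated start of Col1a2 may therefore be that of translation, and distances in its window may not be counted from the start of transcription. Col1a2 lies at chr4:33518307-33518606, plus strand, Lum at chr7:34245456-34245755, plus strand, Plod2 at chr8:101964068-101964367, plus strand, P4ha2 at chr10:38743644-38743943, plus strand and Loxl4 at chr1:251365528-251365827, minus strand, each printed along the gene's own strand.
Col1a2: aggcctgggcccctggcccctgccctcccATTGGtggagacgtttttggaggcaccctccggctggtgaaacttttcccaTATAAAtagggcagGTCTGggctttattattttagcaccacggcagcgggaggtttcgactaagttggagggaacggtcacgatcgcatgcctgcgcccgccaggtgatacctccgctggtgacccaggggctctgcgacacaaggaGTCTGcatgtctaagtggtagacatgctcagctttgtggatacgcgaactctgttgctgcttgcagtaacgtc
Lum: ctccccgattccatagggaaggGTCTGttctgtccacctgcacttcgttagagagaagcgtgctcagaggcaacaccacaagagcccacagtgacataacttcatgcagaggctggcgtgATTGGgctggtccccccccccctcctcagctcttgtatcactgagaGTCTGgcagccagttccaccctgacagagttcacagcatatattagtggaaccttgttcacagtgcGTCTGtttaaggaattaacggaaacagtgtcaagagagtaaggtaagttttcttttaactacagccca
Plod2: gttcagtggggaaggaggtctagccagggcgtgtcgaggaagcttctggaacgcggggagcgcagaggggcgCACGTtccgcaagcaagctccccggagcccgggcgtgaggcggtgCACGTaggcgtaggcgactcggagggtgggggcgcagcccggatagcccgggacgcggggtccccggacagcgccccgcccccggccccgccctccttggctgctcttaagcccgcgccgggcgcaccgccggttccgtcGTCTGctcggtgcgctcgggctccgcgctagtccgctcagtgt
P4ha2: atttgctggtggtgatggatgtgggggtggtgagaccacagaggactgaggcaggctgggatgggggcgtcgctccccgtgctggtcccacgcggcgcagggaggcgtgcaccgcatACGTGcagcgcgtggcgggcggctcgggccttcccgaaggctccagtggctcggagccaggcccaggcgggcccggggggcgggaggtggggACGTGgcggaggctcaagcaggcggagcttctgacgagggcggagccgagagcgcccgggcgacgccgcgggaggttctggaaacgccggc
Loxl4: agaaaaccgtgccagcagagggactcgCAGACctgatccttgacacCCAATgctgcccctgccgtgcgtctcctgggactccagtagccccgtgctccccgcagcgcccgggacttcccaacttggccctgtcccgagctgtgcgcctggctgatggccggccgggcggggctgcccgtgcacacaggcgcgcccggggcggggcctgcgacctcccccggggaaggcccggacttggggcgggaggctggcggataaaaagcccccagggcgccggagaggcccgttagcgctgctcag

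No motif stood out as more frequent in these 29 windows than in all windows, and no test was made. Bgn, Col12a1, Col1a1, Col3a1, Dcn and Lox are not among the 29. Each of the 29 belongs to a gene with a single window, a limit that was not put on the set of all windows. CAGAC was found in 15 of the 29 windows (51.7%), beside 50.1% of all 33469 windows of the same length, and CCAAT in 9 (31.0%, beside 37.5%). TATAAA was found in 2 (6.9%, beside 14.2%), ACGTG in 3 (10.3%, beside 19.3%) and TGANTCA in 0 (beside 7.33%). Plod2 and P4ha2, enzyme genes that hypoxia is known to raise, hold ACGTG at 2 places each, the first letter 178 and 133 bases before the start in Plod2 and 133 and 41 in P4ha2. Loxl4 holds CCAAT and CAGAC as Col1a2 and Lum do. A match is a run of letters and says nothing of binding.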

How the data were processed

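Polyadenylated left ventricular RNA of 18 rats (6 per group) was sequenced as stranded single reads, per the labels' protocols. HISAT2 2.1.0, HTSeq 0.11.2, DESeq2 1.22.2 and build Rnor_6.0 are named in the submitters' processing notes; their settings, strand handling, treatment of multiply mapped reads and covariates are not given in the sources at hand. Library batches are not given either, so group and batch cannot be told apart, and without a stated strand setting overlapping antisense genes are uncertain.

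Per the file headers, the authors deposited a linear fold (the ratio of the group named first over the other) and an FDR, which is an adjusted p-value. Neither was altered. No listed fold lies between 0.5 and 2. The highest FDR is 0.0498 and 0.0499 in the obese lists (against lean and WKY hearts) and 0.000347 in that of lean against WKY. Depth per sample is unknown, and no test could be added. The files held 0 columns of values per rat.

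Log2 folds, medians (taken on the log2 scale) and counts were computed with Python 3.11.15 and pandas 2.3.3, and the counting and motif search were tested on simulated data. Symbols were matched to RefSeq (GRCr8): 94.8%, 95.0% and 91.4% of the rows of obese against lean, obese against WKY and lean against WKY matched. Names, neighbours and promoter windows were taken from it, and coordinates are given for those windows only. A symbol's class and the partner, marker and motif lists were written down with earlier results of these data known, as was the choice of members. All fibrillar and basement membrane collagens, enzymes and proteoglycans were described, with the remaining listed collagens by size of fold and partner genes by adjusted p or by moving against the majority. Protein sequences were not used here.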

Additional observations from a re-analysis of the deposited data

How the results depend on the processing

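Thresholds on fold changed the counts more than thresholds on FDR. With an FDR under 0.01 or under 0.001, 24 and 23 members were higher in obese than in lean hearts (26 as deposited), and 27 and 26 were higher than in WKY hearts (32 as deposited). With the highest FDR of the lean list as the ceiling in the obese lists, an alternative chosen after seeing the data, 22 and 26 were higher. A fold of at least 3 left 14 higher over lean and 20 over WKY hearts, and a fold of at least 4 left 10 and 11. Loxl4, the 1 member that fell over lean hearts, was lost at both fold limits (0 lower at each), and Col15a1 in lean against WKY hearts at the limit of 4 (0 lower). The cause is the construction of these limits. Median log2 folds of listed members ran from 1.64 to 2.31 over lean and from 1.89 to 2.09 over WKY hearts. Both upper ends came from the fold limit of 3, which raises such a median by construction. Counting each symbol once or leaving out matches of another family could change no count. Each listed member had a single identifier, and Loxhd1 was not listed. No paired analysis was possible because the groups share no replicate numbers and the lists hold no values per rat. Left-out rats could not be run for the same reason, and depth is unknown.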
